A study of Mus musculus with 6 samples.

Results

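The 42 genes described here carry inflammatory signals from the cell surface, endosome or cytosol to the kinases that activate NF-kB. They are 7 Toll-like receptors and their co-receptor Cd14, the NOD receptors Nod1 and Nod2 with the kinase Ripk2, 4 receptors of the TNF family, 7 adaptors and IRAK kinases, 6 TRAF proteins, 10 genes of the TAK1 and IKK kinase complexes, and 4 brakes. They were chosen by name, and each of the 42 matched 1 of the 54838 gene IDs in the count tables.

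The study asked which genes are induced when TGR5, a cell-surface bile acid receptor, is stimulated in intestinal stem cells. All cells came from mice carrying the Lgr5-eGFP-IRES-CreERT2 allele (strain B6.129P2-Lgr5tm1(cre/ERT2)Cle/J), in which the Lgr5 promoter of crypt-base stem cells drives green fluorescent protein and an inducible Cre, so treated and control cells share that allele. On each of 3 days, GFP-high cells were sorted from the pooled intestines of 4 mice, embedded in Matrigel at 20000 cells per 10 µL drop with about 200000 cells in all, and given their treatment 4 h later in a medium with the Notch ligand peptide JAG-1 (1 µM) and the GSK3 inhibitor CHIR99021 (3 µM). The INT-777 group (3 libraries, 1 per day) received the synthetic bile acid INT-777, an agonist of TGR5, at 30 µM; the DMSO group (3 libraries, 1 per day) received the solvent. Treatment lasted 12 h by the sample labels and 16 h by the design text. The labels give no age for the mice, and each library is a pool of animals, so differences between animals cannot be seen.

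Toll-like receptors bind microbial products and recruit the adaptors MyD88 or TRIF, after which IRAK kinases and the ubiquitin ligase TRAF6 activate the kinase TAK1. Receptors of the TNF family recruit other TRAF proteins, and NOD receptors sense peptidoglycan fragments in the cytosol and signal through RIPK2. These routes meet at the IKK complex, which marks the inhibitors of NF-kB for destruction, whereas the kinase NIK runs a separate route through IKK-alpha; proteins such as A20, its partner TNIP1, CYLD and OTULIN take the signal down again. In gut epithelium these receptors face a dense microbiota, and their level and position are known to be tightly limited.

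The 6 libraries held 45682340 to 47905087 read pairs assigned to genes, so that a gene at 1 count per 1000000 assigned pairs (CPM, scaled between libraries by the TMM method) had 46.1 to 47.7 read pairs. Epithelial, stem cell, Paneth and goblet markers were all abundant in all 6 libraries. The summed goblet and Paneth markers, given below, exceeded the summed stem cell markers in each library. The levels may thus be those of a mixture, though sums over different genes do not give the shares of cell types. Of 35 immune cell markers 28 stayed under 1 CPM in all 6 libraries, and Lcp1, at 86.7 to 107 CPM, made up most of the summed level. The other 34 immune markers summed to 7.23, 7.72 and 18.7 CPM in the INT-777 libraries of days 1, 2 and 3, against 6.75, 7.55 and 18.8 CPM in the DMSO libraries, and the neutrophil genes S100a8 and S100a9 had no read pair in any library. Day 3 stood apart: 20.5% of all genes tested differed between days, and within both groups the libraries of days 1 and 2 were far more alike than either was to day 3 (in DMSO, mean chi-square per gene of 2.46 between days 1 and 2, against 89.6 and 91.5 for the pairs with day 3). The summed level of 8 goblet markers was lower with INT-777 on each day ( 3000, 2900 and 12443 CPM in the INT-777 libraries of days 1, 2 and 3 and 5658, 5561 and 28213 CPM in the DMSO libraries), as was the sum of 8 stem cell markers (2041, 2015 and 1593 CPM with INT-777 and 2418, 2384 and 2008 CPM with DMSO). The sum of 7 Paneth markers was also lower on each day (3359, 3553 and 2255 CPM with INT-777 and 3891, 3704 and 3433 CPM with DMSO). The sums of 8 enterocyte markers (274, 279 and 290 CPM with INT-777 and 207, 204 and 184 CPM with DMSO) and of the 8 epithelial markers (10235, 10185 and 10617 CPM with INT-777 and 9385, 9353 and 8976 CPM with DMSO) were higher on each day. Sums follow their most abundant genes. With the day as a block, described below, 1 of the 7 enterocyte markers tested was higher and 2 lower. The median log2 change of those 7, without the block, was 0.01. Of the epithelial markers 5 were higher and 1 lower, and of the stem cell markers 1 higher and 6 lower. Goblet markers had 7 lower and Paneth markers 4, with 0 higher. The blocked fit called 10.3% of all genes lower and 11.1% higher. The part of these cell types in the changes below was not tested.

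Most of this machinery was present in the sorted cells, and how many of its genes were called changed depended on how the day was handled. Of the 42 genes, 36 reached at least 1 CPM in all 6 libraries, Tlr4, Tlr5 and Cd40 were lower but averaged at least 0.1 CPM, and Tlr6, Tlr9 and Traf1 averaged less and were not tested. Ikbke, which encodes the kinase IKK-epsilon, and Tnip1, which encodes a ubiquitin-binding partner of A20, fell with INT-777; none rose in the fit without a day term. That makes 2 lower among the 39 genes with enough reads to test, or 5.13%, where 0.763% of all 15998 genes tested were lower, 0.688% higher and 1.45% either (edgeR quasi-likelihood test, Benjamini-Hochberg adjusted p under 0.05 over all genes, two-sided). At an unadjusted p under 0.05 in edgeR, 8 of the 39 were lower and 4 higher, against 7.42% lower and 8.97% higher of all genes. After adjustment DESeq2 called 4 of the 39 lower and 0 higher (2.68% and 2.31% of all genes), and limma-voom called 2 lower and 0 higher (0.725% and 0.613%). The median log2 change of the 39 was −0.03, against 0.003 for all genes tested, and 28 of the 39 had a log2 change smaller than 0.2 in size. Replicate numbers mark a shared day, and with the day as a block 6 of the 39 were lower (Ikbke, Tnip1, Nod2, Tlr2, Map3k14 and Tlr3) and 4 higher (Tnfrsf1b, Ltbr, Myd88 and Otulin). In that fit 10.3% of all genes were lower, 11.1% higher and 21.4% either, and the genes described here, with 15.4% lower and 10.3% higher, lie near those shares, so the blocked count is not a result about them as a group. Of the 10, Ikbke, Tnip1, Nod2 and Tnfrsf1b passed in the blocked fit with any of the 3 days left out. Each such fit rests on 2 days, so its p-values lean on the spread of other genes. Leaving out day 1 or day 2 also keeps the other, which is much like it. These fits are therefore a weak check. The blocked fit called 6 lower and 2 higher without day 1 (9.58% and 10.4% of all genes), 3 lower and 1 higher without day 2 (7.17% and 4.79%), and 10 lower and 6 higher without day 3 (12% and 12.1%). Without the block, leaving out day 1 gave 0 calls among all genes, leaving out day 2 gave 0 among the 39 (0.00616% lower and 0.0123% higher of all genes), and leaving out day 3 gave 10 lower and 6 higher (12.9% and 13.9%). The direction was the same on all 3 days for 24 of the 39, or 61.5% against 52% of all genes tested, with 14 lower (25.3% of all genes) and 10 higher (26.8%). Since these are bulk samples, fewer cells of a type and less RNA per cell cannot be told apart for any of the changes below.

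**Figure D1:**
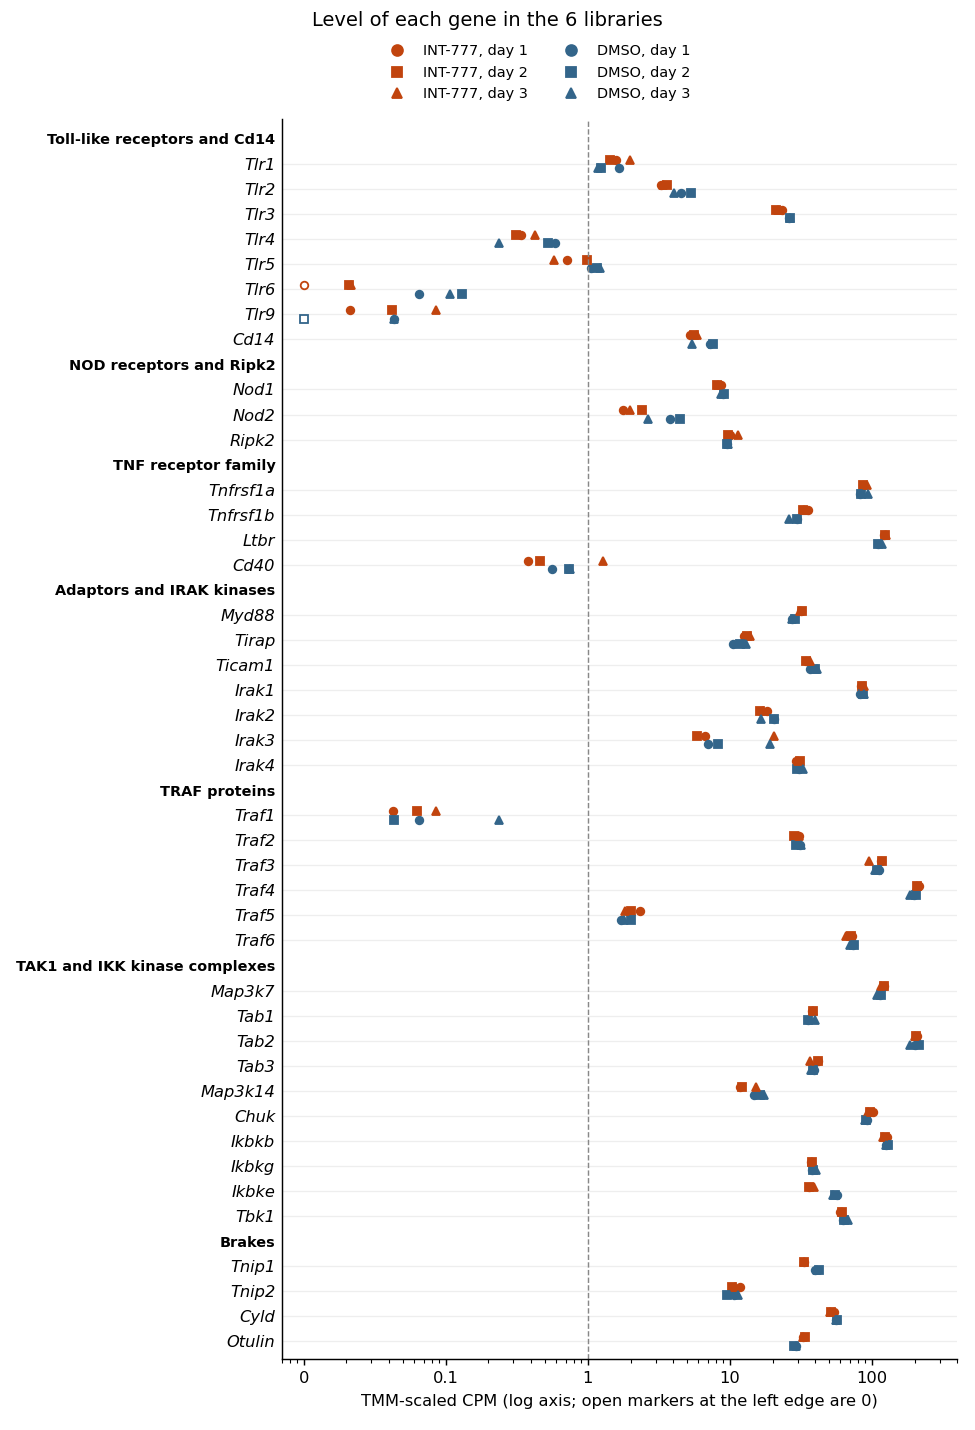
TMM-scaled CPM of each of the 42 genes (log axis) in the 3 INT-777 libraries (upper marker of each row) and the 3 DMSO libraries (lower marker), with the marker shape giving the day. The dashed line is 1 CPM; Tlr6, Tlr9 and Traf1 lie far below it, and Ikbke and Tnip1 show separate clusters for the groups.

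Promoter sequences are shown for Ikbke and Tnip1, which fell in both fits, and for Nod2, Tlr2 and Map3k14, the genes lower with the day block by at least 0.3 on the log2 scale. Each is 300 bases from RefSeq (GRCm38.p6), from 250 before to 50 after a gene's start, written 5′ to 3′ on the gene's own strand. Capitals mark matches to the NF-kB consensus of 10 bases, searched by its usual degenerate form on both strands; overlapping matches are merged.
Ikbke, chr1:131279514-131279813, minus strand: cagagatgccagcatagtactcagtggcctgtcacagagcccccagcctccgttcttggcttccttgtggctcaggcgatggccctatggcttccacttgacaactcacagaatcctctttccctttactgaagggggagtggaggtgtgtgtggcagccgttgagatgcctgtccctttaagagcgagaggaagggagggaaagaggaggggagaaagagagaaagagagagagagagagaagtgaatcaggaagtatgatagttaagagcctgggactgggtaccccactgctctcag
Tnip1, chr11:54962891-54963190, minus strand: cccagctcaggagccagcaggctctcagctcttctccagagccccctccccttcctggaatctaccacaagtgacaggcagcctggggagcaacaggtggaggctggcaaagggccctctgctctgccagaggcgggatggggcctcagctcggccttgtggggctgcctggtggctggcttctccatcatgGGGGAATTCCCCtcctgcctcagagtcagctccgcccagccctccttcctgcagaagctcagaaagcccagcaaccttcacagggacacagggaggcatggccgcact
Tlr2, chr3:83841559-83841858, minus strand: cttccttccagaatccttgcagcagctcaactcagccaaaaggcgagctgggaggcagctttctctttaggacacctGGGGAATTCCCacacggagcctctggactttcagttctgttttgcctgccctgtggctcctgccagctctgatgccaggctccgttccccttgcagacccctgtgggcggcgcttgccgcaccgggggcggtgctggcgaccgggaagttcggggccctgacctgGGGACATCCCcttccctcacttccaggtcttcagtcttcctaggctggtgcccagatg
Nod2, chr8:88647097-88647396, plus strand: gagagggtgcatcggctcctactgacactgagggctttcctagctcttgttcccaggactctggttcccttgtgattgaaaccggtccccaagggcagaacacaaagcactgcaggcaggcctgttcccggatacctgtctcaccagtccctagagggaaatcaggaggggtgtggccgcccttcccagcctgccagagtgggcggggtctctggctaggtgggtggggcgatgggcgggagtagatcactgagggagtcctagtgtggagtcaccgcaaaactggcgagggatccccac
Map3k14, chr11:103267352-103267651, minus strand: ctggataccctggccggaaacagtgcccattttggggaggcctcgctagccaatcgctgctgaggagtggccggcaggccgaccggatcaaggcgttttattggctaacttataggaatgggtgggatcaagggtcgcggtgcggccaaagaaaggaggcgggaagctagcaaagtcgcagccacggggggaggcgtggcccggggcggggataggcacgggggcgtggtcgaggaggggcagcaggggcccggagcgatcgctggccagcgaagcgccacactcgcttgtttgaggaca
The Tnip1 window holds a run of 12 bases, GGGGAATTCCCC, at −58 to −47 from the start, in which matches overlap. The Tlr2 window holds GGGGAATTCCC at −173 to −163 and GGGACATCCC from −8 to 2. The Ikbke, Nod2 and Map3k14 windows hold none. Of the 42 genes, 36 had a window in the table (46 windows), and 8 of the 46 windows (17.4%), in 7 genes, held a match; of all 32851 windows, 8.46% did. The other genes with a match were Tlr3, Map3k7, Cyld, Traf3 and Irak1. The cAMP response element TGACGTCA was in none of the 46 windows and in 1.79% of all windows. Tlr4, Cd14, Ripk2, Cd40, Tab1 and Ikbkb had no entry.

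Among the Toll-like receptors, Tlr3, the endosomal receptor for double-stranded RNA, had the highest level. Divided by the length of the principal transcript, it stood at 5.51 CPM per kb as a mean over the 6 libraries, against 1.34 for Tlr2, 0.501 for Tlr1, 0.298 for Tlr5, 0.0991 for Tlr4, 0.0157 for Tlr6 and 0.0113 for Tlr9. Cd14, the co-receptor that hands lipopolysaccharide to TLR4, was at 3.77 CPM per kb, well above Tlr4 itself. Tlr4 had 0.339, 0.315 and 0.428 CPM in the INT-777 libraries of days 1, 2 and 3 and 0.586, 0.521 and 0.237 CPM in the DMSO libraries, so the lipopolysaccharide receptor was detected in every library at a low level. Tlr5, the flagellin receptor, had 0.72, 0.986 and 0.577 CPM with INT-777 and 1.06, 1.17 and 1.21 CPM with DMSO. Its groups did not overlap, but its log2 change of −0.59 ± 0.24 (SE) passed in neither fit (edgeR adjusted p = 0.281, and 0.0846 with the day block).

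Tlr2, which recognises bacterial lipoproteins as a dimer with TLR1 or TLR6 (chromosome 3, 83836272 to 83841767, GRCm38), had 3.28, 3.61 and 3.36 CPM in the INT-777 libraries of days 1, 2 and 3, against 4.54, 5.36 and 4.07 CPM in the DMSO libraries. Every INT-777 library was below every DMSO library, with the smallest gap on day 3. The means were 3.42 ± 0.17 CPM with INT-777 and 4.66 ± 0.651 CPM with DMSO (SD, n = 3 each). The log2 change was −0.45 ± 0.14 (edgeR adjusted p = 0.187), and −0.44 ± 0.12 with the day block (edgeR adjusted p = 0.0146). The blocked call was lost when both libraries of day 2 were left out. Its dimer partner Tlr1 had a log2 change of 0.29 ± 0.21 and passed in neither fit. The other partner, Tlr6, was near absent, with 2 read pairs summed over the INT-777 libraries and 14 over the DMSO libraries. That ratio of 0.14 has an exact 95% interval of 0.0154 to 0.609 from counting error alone, and without a filter on low counts the edgeR adjusted p was 0.356. Tlr1 and Tlr6 are close paralogues, and pairs that could come from either gene were not counted, so both levels are uncertain.

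Tlr3 had 23.4, 21.2 and 22 CPM with INT-777, against 26.1, 26.7 and 26.5 CPM with DMSO. The groups did not overlap, and the log2 change was −0.25 ± 0.06 (edgeR adjusted p = 0.109, and 0.00805 with the day block). DESeq2 called Tlr3 lower also without the block, and the blocked edgeR call was lost without day 2. Cd14 had 5.23, 5.64 and 5.88 CPM with INT-777 and 7.29, 7.61 and 5.45 CPM with DMSO. It was lower with INT-777 on days 1 and 2 and slightly higher on day 3 (log2 ratios of −0.48, −0.43 and 0.11), and its log2 change of −0.28 ± 0.15 passed in neither fit. Without the libraries of day 3 Cd14 was called lower (edgeR adjusted p = 0.000496), in a fit that calls 12.9% of all genes lower. Tlr9, the endosomal receptor for bacterial DNA, had 7 read pairs in all with INT-777 and 4 with DMSO.

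Of the NOD receptors, Nod2 was lower with the day block and Nod1 passed in neither fit. Nod2, the sensor of muramyl dipeptide (chromosome 8, 88647315 to 88688474), had 1.78, 2.41 and 1.99 CPM in the INT-777 libraries of days 1, 2 and 3, against 3.8, 4.47 and 2.67 CPM in the DMSO libraries. All 3 INT-777 libraries were below all 3 DMSO libraries, and the difference was smallest on day 3. The means were 2.06 ± 0.322 CPM with INT-777 and 3.65 ± 0.908 CPM with DMSO (SD, n = 3 each). The log2 change of −0.82 ± 0.22, a fold of 0.566, was the largest in size among the 39 genes tested. It did not pass without the block (edgeR adjusted p = 0.136) and did with it (−0.81 ± 0.15, edgeR adjusted p = 0.00138), also when any of the 3 days was left out of the blocked fit; DESeq2 called it without the block (adjusted p = 0.0339). Nod1, which senses another peptidoglycan fragment, had 8.62, 8.08 and 8.3 CPM with INT-777 and 8.94, 9.05 and 8.7 CPM with DMSO, and a log2 change of −0.09 ± 0.08. Ripk2, the kinase that both receptors use, had a log2 change of 0.12 ± 0.09. Neither Nod1 nor Ripk2 passed in either fit. The ratio of Nod2 to Nod1 per transcript length was 0.191, 0.277 and 0.222 with INT-777, against 0.394, 0.458 and 0.285 with DMSO. A ratio within a library does not depend on the scaling between libraries; the pairs of related genes compared in this way were chosen after their values were seen, so their ratios are given as a description with no test.

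The receptors for TNF and lymphotoxin were among the most abundant of the 42 genes. Per transcript length Ltbr, the lymphotoxin beta receptor, stood at 56.2 CPM per kb and Tnfrsf1a, the main receptor for TNF, at 40.6, against 8.16 for Tnfrsf1b, the second TNF receptor, and 0.233 for Cd40. Tnfrsf1a had 86.2, 86.7 and 92.5 CPM with INT-777 and 82.5, 83.6 and 93.4 CPM with DMSO. These groups overlap, and the approximate 95% interval of its log2 change was −0.09 to 0.16. Tnfrsf1b had 35.3, 32.7 and 33.4 CPM with INT-777, against 29.6, 29.6 and 26.2 CPM with DMSO. It was higher in every INT-777 library, by 0.25 ± 0.07 on the log2 scale (edgeR adjusted p = 0.145, and 0.00652 with the day block), and the blocked call held with any of the 3 days left out. Ltbr had 122, 124 and 126 CPM with INT-777 and 110, 111 and 118 CPM with DMSO, which is 0.13 ± 0.05 higher on the log2 scale (edgeR adjusted p = 0.248, and 0.03 with the day block). Leaving out day 1 or day 2 ended that blocked call. Cd40, a receptor of antigen-presenting cells, had 0.381, 0.461 and 1.28 CPM with INT-777 and 0.564, 0.738 and 0.754 CPM with DMSO, with its highest value on day 3.

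The adaptors and IRAK kinases were all present, and with all 6 libraries none of the 7 passed without the day block, by edgeR, DESeq2 or limma-voom; 2 had an unadjusted edgeR p under 0.05. Without the libraries of day 3, edgeR called Ticam1, Irak2 and Irak3 lower (adjusted p = 0.0267, 0.00308 and 0.0281) and Myd88 and Tirap higher (0.0107 and 0.0433), in the fit that calls 12.9% of all genes lower and 13.9% higher. Per transcript length Irak1, which acts downstream of MyD88, had the highest level (22.5 CPM per kb), followed by Myd88 (15.2) and Ticam1 (12.4), the gene of the adaptor TRIF. Myd88 had 31.5, 32 and 31.2 CPM with INT-777, against 27.5, 28.6 and 27.5 CPM with DMSO. Its groups did not overlap, but the change was small (log2 0.18 ± 0.05, edgeR adjusted p = 0.151, and 0.0267 with the block), and the blocked call was lost without day 1 or without day 2. Ticam1 had 34.4, 34.6 and 36.6 CPM with INT-777 and 36.4, 39.7 and 41.4 CPM with DMSO, and its log2 change of −0.15 ± 0.06 passed in neither fit. Irak1 did not move beyond its spread, with an approximate 95% interval of −0.10 to 0.09 for the log2 change. Irak4, Irak2 and Tirap had log2 changes of −0.04 ± 0.06, −0.16 ± 0.10 and 0.17 ± 0.10. Myd88, Tirap, Irak2, Irak3 and Irak4 overlap genes on the opposite strand, and read pairs in the shared stretches had been set aside as ambiguous, so their levels are understated. Tlr3, Traf5 and Ikbkg overlap such genes too, and the same limit holds for them, as for Ikbke, described below.

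Of the 39 genes tested, Irak3 had the smallest p between days. It encodes IRAK-M, a member of the IRAK family that restrains TLR signalling, and had 6.7, 5.87 and 20.3 CPM in the INT-777 libraries of days 1, 2 and 3, against 7.07, 8.24 and 19.3 CPM in the DMSO libraries. The day 3 library was 3.23-fold above the mean of days 1 and 2 with INT-777 and 2.53-fold with DMSO (edgeR F-test of the day terms, adjusted p = 1.01e-07). Traf3 was the other gene called by day, with a small difference (edgeR adjusted p = 0.0496), which makes 2 of 39, or 5.13%, against 20.5% of all genes tested. The goblet marker sums given above were likewise highest on day 3 in both groups. The 7 enteroendocrine markers summed to 542, 550 and 2062 CPM with INT-777 and 581, 595 and 2615 CPM with DMSO. The part of these cells in the level of Irak3 was not tested. Between treatments Irak3 had a log2 change of −0.08 ± 0.68 without a day term and −0.14 ± 0.10 with it, and passed in neither fit. Without day 3 it was called lower (log2 −0.29 ± 0.10, edgeR adjusted p = 0.0281), and the goblet and enteroendocrine sums were lower with INT-777 on each day.

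**Figure D2:**
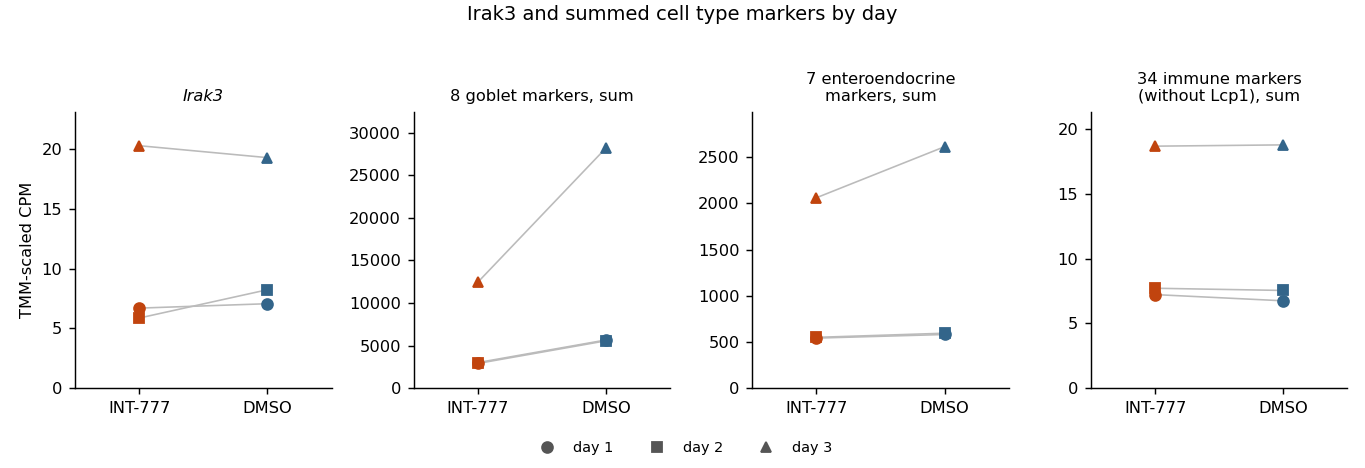
TMM-scaled CPM of Irak3 and the summed CPM of 8 goblet, 7 enteroendocrine and 34 immune cell markers in each library, INT-777 left and DMSO right, with lines joining the libraries of a day. All 4 panels are highest on day 3 in both groups; the goblet and enteroendocrine sums are also lower with INT-777 on every day.

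None of the 5 TRAF genes tested passed in edgeR with or without the block, in DESeq2 or in limma-voom, and 0 had an unadjusted edgeR p under 0.05 without the block. Traf4 was the most abundant of the 42 genes per transcript length, at 97.7 CPM per kb, followed within the family by Traf3 (15.5), Traf6 (11.6) and Traf2 (9.96), whereas Traf5 stood at 0.995 and Traf1 at 0.026. Traf6, the ubiquitin ligase shared by TLR and interleukin 1 signalling, had 73, 71.2 and 66.1 CPM with INT-777 and 73.5, 74.5 and 70.5 CPM with DMSO, and an approximate 95% interval of −0.17 to 0.05 for its log2 change. Traf2, the adaptor of TNF receptors, had one of −0.15 to 0.09, and Traf3, which keeps NIK low, of −0.15 to 0.17. Traf5, at a low level, had a log2 change of 0.17 ± 0.16. Traf4 had 215, 207 and 209 CPM with INT-777 and 198, 203 and 186 CPM with DMSO; the groups did not overlap, but its log2 change of 0.10 ± 0.05 passed in neither fit (edgeR adjusted p = 0.373, and 0.0839 with the block). Traf1, known as an NF-kB target of lymphocytes, had 9 read pairs over the INT-777 libraries and 16 over the DMSO libraries, of which 11 were in the DMSO library of day 3. The sum of immune markers was also high in both libraries of day 3, and its part in the Traf1 count was not tested.

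**Figure D3:**
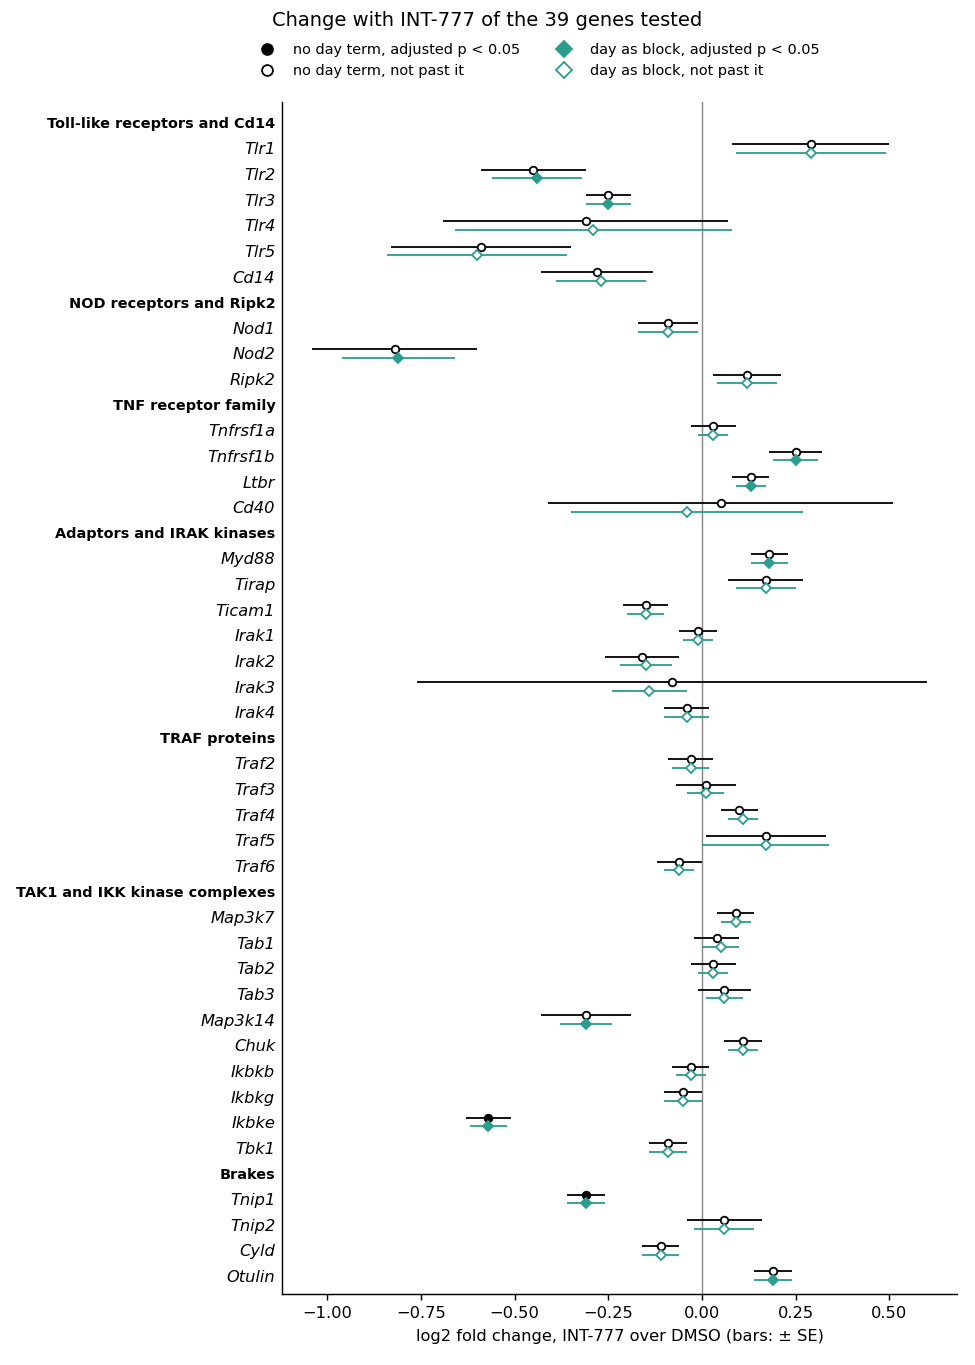
Log2 fold change of INT-777 over DMSO with its standard error for the 39 genes tested, in the fit without a day term (circles) and with the day as a block (diamonds); filled symbols passed an adjusted p of 0.05. Ikbke and Tnip1 are filled in both fits, 8 further genes with the block alone, and most of the kinase and TRAF genes lie within 0.2 of 0.

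In the kinase complexes Ikbke fell, and with all 6 libraries no core subunit of IKK or TAK1 passed. Ikbke (chromosome 1, 131254343 to 131279606), whose product IKK-epsilon is a relative of TBK1 that phosphorylates interferon regulatory factors and feeds into NF-kB, had 36, 35.9 and 39.1 CPM in the INT-777 libraries of days 1, 2 and 3, against 56.4, 54.6 and 53.4 CPM in the DMSO libraries. The means were 37 ± 1.82 CPM with INT-777 and 54.8 ± 1.53 CPM with DMSO (SD, n = 3 each). The groups lay far apart on every day, with log2 ratios of −0.65, −0.61 and −0.45. The log2 change was −0.57 ± 0.06, a fold of 0.675 (edgeR adjusted p = 0.00733, and 2.84e-06 with the day block). It passed in the blocked fit with any of the 3 days left out, whereas without the block it lost the call when a library of day 1 or day 2 was left out (edgeR adjusted p from 0.0608 to 0.0813) or both libraries of day 1 (0.363) or day 2 (0.313), fits in which 0 to 19 genes were called in all. The antisense genes Gm28913 and Gm28914 overlap 2.48% of its exon bases on the other strand. Ikbke was called with the counts of either strand column. Each strand column held about the same number of pairs, so those columns cannot separate Ikbke from its antisense genes.

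Tbk1, the paralogue, had 59.4, 61.1 and 61.7 CPM with INT-777 and 62.4, 63.4 and 67.7 CPM with DMSO. The groups did not overlap, but the difference was small (log2 −0.09 ± 0.05) and passed in neither fit. Per transcript length the ratio of Ikbke to Tbk1 was 0.564, 0.546 and 0.589 with INT-777, against 0.842, 0.801 and 0.734 with DMSO, a difference of −0.48 in mean log2 ratio. Chuk, Ikbkb and Ikbkg, which encode IKK-alpha, IKK-beta and the regulatory subunit NEMO, had log2 changes of 0.11 ± 0.05, −0.03 ± 0.05 and −0.05 ± 0.05, and none passed in either fit. Chuk was called higher without the libraries of day 3 (edgeR adjusted p = 0.00988 without the block), in the fit that calls 13.9% of all genes higher. Ikbkb had 128, 124 and 120 CPM with INT-777 and 125, 129 and 126 CPM with DMSO. The TAK1 kinase gene Map3k7 and its partners Tab1, Tab2 and Tab3 had log2 changes between 0.03 and 0.09, none past the threshold. Tab2, which ties TAK1 to ubiquitin chains, was the most abundant of the kinase complex genes per transcript length, at 46.1 CPM per kb, followed by Ikbkb at 35 and Chuk at 26.8.

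Map3k14, which encodes NIK, the kinase of the non-canonical route (chromosome 11, 103219762 to 103267472), had 11.7, 12.1 and 15.4 CPM with INT-777, against 14.9, 16.2 and 17.4 CPM with DMSO. The groups overlapped, with day 3 highest in both, and within each day the INT-777 library was lower. The means were 13.1 ± 2.05 CPM with INT-777 and 16.2 ± 1.25 CPM with DMSO (SD, n = 3 each). The log2 change of −0.31 ± 0.12 did not pass without the block (edgeR adjusted p = 0.269) and did with it (−0.31 ± 0.07, edgeR adjusted p = 0.00738); without day 2 the blocked call was lost.

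**Figure D4:**
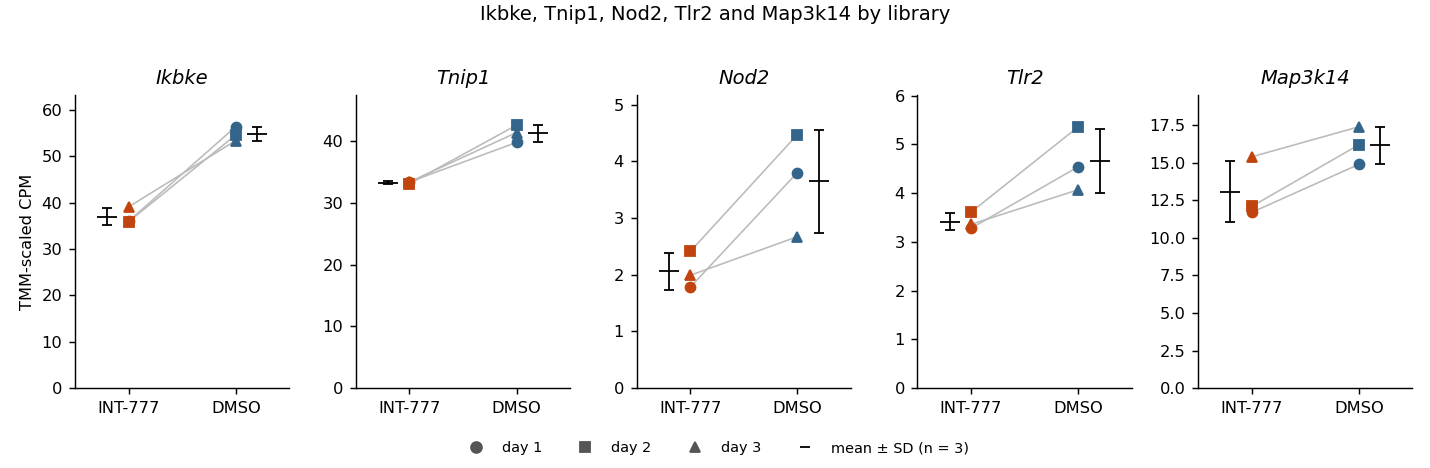
TMM-scaled CPM of Ikbke, Tnip1, Nod2, Tlr2 and Map3k14 in each library, INT-777 left and DMSO right, with lines joining the libraries of a day and black bars for the mean ± SD of 3 libraries. Each line runs lower at INT-777, and the groups overlap for Map3k14 alone.

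Of the brakes, Tnip1 fell and Otulin was higher with the day block. Tnip1 (chromosome 11, 54910785 to 54962917), whose product binds A20 and linear ubiquitin chains and holds back NF-kB, had 33.4, 33.1 and 33.4 CPM in the INT-777 libraries of days 1, 2 and 3, against 39.8, 42.6 and 41.4 CPM in the DMSO libraries. The INT-777 libraries all lay below the DMSO libraries, with means of 33.3 ± 0.178 CPM for INT-777 and 41.3 ± 1.42 CPM for DMSO (SD, n = 3 each). With 1561 to 1577 read pairs per INT-777 library, the SD of that group is smaller than counting error alone would give. The log2 change was −0.31 ± 0.05, a fold of 0.806 (edgeR adjusted p = 0.0371, and 0.000649 with the block). Without the block the call was lost when either library of day 1, either of day 2, or the INT-777 library of day 3 was left out (edgeR adjusted p from 0.0644 to 0.228), and when both libraries of day 1 (0.59) or day 2 (0.77) were; with the block it held when any of the 3 days was left out. The call without the block was also lost with the counts of the second strand column (edgeR adjusted p = 0.0867). Tnip2, a relative that also binds ubiquitin, had 11.8, 10.3 and 10.8 CPM with INT-777 and 10.7, 9.5 and 11.5 CPM with DMSO and passed in neither fit. The ratio of Tnip1 to Tnip2 per transcript length was 1.89, 2.14 and 2.06 with INT-777, against 2.48, 3 and 2.41 with DMSO.

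Otulin, the deubiquitinase that cleaves linear chains, had 32.8, 33.6 and 32.5 CPM with INT-777, against 29.3, 28.5 and 29.1 CPM with DMSO. Every INT-777 library was higher, by a small amount (log2 0.19 ± 0.05, edgeR adjusted p = 0.136, and 0.0233 with the block), and the blocked call was lost without day 2. Cyld, a deubiquitinase that trims ubiquitin chains on several signalling proteins, had 53.8, 51.7 and 50.4 CPM with INT-777 and 56, 56.6 and 56.1 CPM with DMSO, without overlap, and its log2 change of −0.11 ± 0.05 passed in neither fit. In all, 15 of the 39 genes tested had groups that did not overlap, 38.5% against 24.5% of all genes tested; 9 of them were lower with INT-777 (23.1%, against 11% of all genes) and 6 higher (15.4%, against 13.6%).

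Further genes of the same routes were counted from lists chosen by function; over all genes, the fit without a day term called 0.763% lower and 0.688% higher, and the blocked fit 10.3% lower and 11.1% higher, so several of the blocked counts lie near the share of all genes. Of 24 other TNF receptors 16 were tested, and Tnfrsf12a, the receptor for TWEAK, rose: it had 144, 150 and 161 CPM in the INT-777 libraries and 104, 104 and 103 CPM in the DMSO libraries (log2 0.55 ± 0.05, edgeR adjusted p = 0.00698). The blocked fit called 2 of the 16 higher and 3 lower. Of 18 TNF ligands 8 were tested, and in the fit without a day term Tnf alone fell, to 0.953, 0.755 and 0.984 CPM with INT-777, against 4.14, 4.21 and 3.15 CPM with DMSO (edgeR adjusted p = 0.00585); the blocked fit and DESeq2 each called 2 of the 8. Of 37 other pattern receptors and their partners 23 were tested, and Ddx58, the gene of the RNA sensor RIG-I, fell (log2 −0.44 ± 0.07, edgeR adjusted p = 0.0398); 3 were higher and 5 lower with the block. None of the 30 ubiquitin and adaptor genes tested, such as those of the linear ubiquitin ligase, passed in edgeR without the block or in limma-voom, 5 had an unadjusted edgeR p under 0.05, and DESeq2 called 1 (unadjusted edgeR, 7.42% lower and 8.97% higher of all genes; DESeq2, 2.68% and 2.31%). With the block 4 were lower, and the median log2 change of the 30 was −0.03. Of 20 other brakes tested, Tnfaip3, the gene of A20, fell (log2 −0.59 ± 0.07, edgeR adjusted p = 0.012), with 2 higher and 5 lower in the blocked fit. Downstream, 3 of the 11 genes of NF-kB subunits and inhibitors fell, namely Nfkbia, Nfkb2 and Relb, with log2 changes of −0.79, −0.53 and −0.42, and 7 were lower with the block, with a median log2 change of −0.22.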

How the data were processed

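RNA was measured in 6 libraries of sorted mouse intestinal cells. Per the submitters' processing notes, STAR 2.73a, FastQC and edgeR 3.24.3 were used with the builds GRCm38 and mm10 and an annotation of a version not given in the sources used here. Deposited files hold raw counts of read pairs per gene in the layout STAR writes; the column that ignores strand was used, since each strand column held about the same number of pairs. Lines that name no gene stayed out of library sizes: unmapped pairs were 10.3 to 11.3% of all, multimapping 5.96 to 6.31%, on no gene 3.32 to 3.83% and ambiguous 4.35 to 4.54%. Of 54838 gene IDs, 54809 matched GENCODE M21 (GRCm38), which gave symbols, positions and the length of the principal (APPRIS) transcript.

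The 42 genes, the lists and the tests were chosen with earlier results of these data known. Genes were filtered with filterByExpr (15998 left), scaled with TMM and tested in R 4.3.3 with edgeR 4.0.16 (robust quasi-likelihood F-test, treatment as the single term, two-sided). Adjusted p-values are Benjamini-Hochberg over all genes tested, with 0.05 as threshold. SE was taken as the size of the log2 change divided by the root of F, and approximate 95% intervals take it as normal. With 3 libraries per group such intervals are too narrow. For Cyld the interval of −0.21 to −0.02 leaves out 0, though its unadjusted edgeR p was 0.0529. CPM is counts over TMM-scaled library size in units of 1000000. Intervals of ratios of counts cover counting error only. The replicate number is the day by the labels and so pairs INT-777 and DMSO libraries; their departures from the group means had correlations of 0.329, 0.369 and 0.632 on days 1, 2 and 3. Across days 1 and 2 the correlations were as large (0.336 and 0.363) and with day 3 negative, so the values set day 3 apart and the pairing of days 1 and 2 comes from the labels alone. Days were compared by dropping both day terms (F-test). Genes given by library and in both fits are those past the threshold, and those past it with the block with a log2 change of at least 0.3 in size; further genes were chosen after their values were seen. From related lists at most the 3 of smallest p that passed are named. Alternatives were the day block, scaling, filters, strand columns, DESeq2 1.42.0, limma-voom (limma 3.58.1), thresholds, and leaving out libraries or days. The tests were run on simulated counts that held no day effect, so the simulation does not check how the fits handle the day. Per the labels, each day is a separate pool of 4 mice. Without the block, p-values measure the spread between libraries of a group, each from its own pool. With the block, they measure the spread of the difference between INT-777 and DMSO within a day. Fits without day 3 rest on days 1 and 2, which were far more alike than either was to day 3. Their mean chi-square per gene was 2.46 in DMSO and 3.24 in INT-777. Those fits therefore sample little of the spread between pools. Blocked fits that leave out a day rest on 2 within-day differences per gene and lean on the spread of other genes.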

Additional observations from a re-analysis of the deposited data

How the results depend on the processing

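The count of 2 genes lower and 0 higher depended most on how the day was handled. With the replicate block, which pairs the libraries by day, 6 were lower and 4 higher. Leaving out 1 library gave 0 to 3 lower and 0 higher. Leaving out both libraries of day 1, 2 or 3 gave 0, 0 and 10 lower and 0, 0 and 6 higher without the block, and 6, 3 and 10 lower and 2, 1 and 6 higher with it, the blocked fits being added after the data were seen. The cause was not tested. DESeq2 called 4 lower, the second strand column 1 (Ikbke) and an adjusted p under 0.01 also 1. The other scalings, filters, the first strand column, limma-voom and an adjusted p under 0.1 kept 2 or 3 lower and 0 higher. The log2 changes of Ikbke, Tnip1, Nod2, Tlr2 and Map3k14 kept their direction in each of the 24 alternatives run for them. Among those, an adjusted p under 0.1 or under 0.01 changes the threshold alone, so the direction could not differ there. In all genes tested, scaling moved the median log2 change by less than 0.1.

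Of the 39 genes, 2 differed between days; the number was 1 with DESeq2, with a filter of 1 CPM in 3 libraries and at an adjusted p under 0.01, and 4 without a filter. Between 33 and 37 genes were present with a minimum of 2 or 0.5 CPM. Genes under 1 CPM rest on fewer than 48 read pairs a library, and 3 read pairs correspond to 0.0629 to 0.0651 CPM, so Tlr6, Tlr9 and Traf1 cannot be compared beyond counting error.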
